A study of Mus musculus with 4 samples.

Results

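The genes described here are 33 genes of glycolysis and of the transcriptional response to low oxygen, followed in cultured mouse skin fibroblasts with and without ADAM9. They were chosen by name: 16 glycolytic enzymes, 5 transporters and regulators of glycolysis, 9 other targets of the hypoxia-inducible factors (HIFs), and 3 genes of the HIF pathway itself. A gene was taken as measured where a probe set of the array named it and no other gene, which held for 30 of the 33, out of 18194 genes so named in the whole series. These 30 genes had 64 of the 45101 probe sets, and where a gene had several, the brightest over the 4 arrays stands for it. Gpi1, Eno1 and Bnip3l had no such probe set.

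Glycolysis splits glucose into pyruvate in the cytosol and yields ATP without oxygen. Hexokinase, phosphofructokinase and pyruvate kinase catalyse its irreversible steps, and lactate dehydrogenase regenerates the NAD+ that the pathway consumes. When oxygen is scarce, HIF alpha subunits escape hydroxylation by the EGLN enzymes and destruction through the von Hippel-Lindau protein VHL, and bind DNA at hypoxia response elements. Most glycolytic enzymes are HIF targets, together with genes for mitophagy, acid-base balance and the EGLN enzymes themselves. Proliferating fibroblasts in culture also rely strongly on glycolysis.

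Fibroblasts came from the skin of mice at postnatal day 1 that carried no functional Adam9 (adam9 -/-, knockout, KO; n = 2 isolations) or the intact gene (adam9 +/+, wild type, WT; n = 2). Cultures were untreated, grown on square plates of 10 cm and lysed for RNA after 48 h. The sources used here do not give the strain, the design of the deleted allele, the oxygen level or the number of animals per isolation, so the p-values measure only the spread between isolations, which may be technical. The study asked which genes differ constitutively without ADAM9.

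Adam9, a membrane-bound metalloprotease gene, stood at 8.33 and 8.55 on the log2 scale in the knockout and 11.58 and 11.70 in the wild type, although whether its probe set lies in the deleted part is not given. The genotypes also differed in sex-linked expression: Xist stood at 10.38 and 10.40 in the knockout against 4.29 and 4.32 in the wild type, and Y-linked Eif2s3y at 2.75 and 2.67 against 9.19 and 9.31. Genotype and this sex-linked difference cannot be told apart. The 12 dermal fibroblast markers had median log2 values of 12.85 and 12.97 in the knockout and 12.91 and 12.33 in the wild type. Lum (10.13) and Pdgfra (10.35) were lowest in wild-type isolation 2. Fn1 went the other way, at 12.90 and 13.16 in the knockout and 13.76 and 13.73 in the wild type. Macrophage and leukocyte markers (12 of 16 above the filter on low values) had medians of 4.72 and 4.45 in the knockout. Their medians were 9.13 in wild-type isolation 1 and 4.84 in wild-type isolation 2. The protease Ctss reached 10.07 and lysozyme Lyz2 12.56 in wild-type isolation 1. Laptm5 did not follow, at 5.42 and 5.85 in the knockout and 5.70 and 5.79 in the wild type. Ptprc, Itgam, Aif1 and Mrc1 were not among the 12. Pericyte and smooth muscle markers (9 of 9) had medians of 7.23 and 5.97 against 7.67 and 7.32, with members of opposite sign (Myh11 differed by -3.12 and Abcc9 by 2.51), and adipocyte markers (3 of 7) of 7.72 and 8.50 against 7.58 and 7.43. Keratinocyte markers (4 of 10) had medians of 4.20 to 5.06 in the knockout and 5.89 to 6.62 in the wild type. Their members also differed in sign, with Perp at -3.84 and Dsp at -2.49 but the keratin Krt10 at 0.39. Medians were 5.55 to 5.79 in the knockout and 5.94 to 6.20 in the wild type for skeletal muscle (5 of 10). They lay between 4.88 and 5.18 on all arrays for endothelial cells (4 of 8) and between 5.30 and 5.65 for Schwann cells and melanocytes (5 of 9). The 23 proliferation genes tested had medians of 8.47 and 9.39 in the knockout and 6.89 and 6.59 in the wild type, and all 23 had a positive difference, with none past the test. Of 7 MYC-linked growth genes, 6 had a positive difference (median 0.20) and none passed. In such bulk RNA, fewer cells of a type and less RNA per cell cannot be told apart.

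Promoter sequences were searched for letters of the hypoxia response element. Many of these genes were chosen as HIF targets, and HIFs bind at such elements. A share above the background is therefore partly built into the choice of genes. The core of the hypoxia response element is written ACGTG or GCGTG. Both were searched on both strands in RefSeq windows (GRCm38.p6) of 300 bases, from 250 before to 50 after each annotated start, and the palindrome CACGTG counts once on each strand. Of the 33 genes, 30 matched a window; Bnip3l, Ndrg1 and Epas1 did not. ACGTG was found in 12 of 27 windows of the glycolytic enzymes (44.4%), 4 of 7 of the transporters and regulators (57.1%), 6 of 7 of the other HIF targets (85.7%) and 1 of 2 of the HIF pathway genes. As a background, the share was 24.5% over 13641 windows of genes tested on the arrays and 19.6% over all 32851 windows. Windows of the same gene can overlap, so they are not independent. GCGTG was in 23 of the 43 windows of all these genes (53.5%), against 48.2% of the windows of tested genes, so its share was close to that background. A match is a run of letters and not a shown binding site.

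The stretches below are shown because they belong to the genes at either end of the range of differences and to genes between. Each has 120 of the 250 bases before an annotated start, placed to hold the matches and read 5′ to 3′ on the gene's strand, with ACGTG or its reverse complement CACGT in capitals. Ldha (chr7:46845657-46845776, plus strand) had the largest positive difference, and holds the motif letters 5 times; its other annotated start has none.
Ldha: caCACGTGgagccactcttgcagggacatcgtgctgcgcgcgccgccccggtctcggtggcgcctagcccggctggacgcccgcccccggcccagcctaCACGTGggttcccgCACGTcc
Pgk1 (chrX:106186902-106187021, plus strand) had a difference near 0, and holds them 2 times.
Pgk1: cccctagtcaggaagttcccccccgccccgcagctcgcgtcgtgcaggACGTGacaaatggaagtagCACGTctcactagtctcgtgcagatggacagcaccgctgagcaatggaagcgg
Pfkfb3 had the largest negative difference. Its 2 annotated starts (chr2:11553930-11554049 and chr2:11502091-11502210, minus strand) hold them 1 and 2 times.
Pfkfb3 start A: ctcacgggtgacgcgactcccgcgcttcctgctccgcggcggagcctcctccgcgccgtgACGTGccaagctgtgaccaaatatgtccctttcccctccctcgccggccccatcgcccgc
Pfkfb3 start B: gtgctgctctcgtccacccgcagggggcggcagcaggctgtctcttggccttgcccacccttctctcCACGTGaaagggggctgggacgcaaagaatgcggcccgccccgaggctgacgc
Bnip3 (chr7:138909552-138909671, minus strand), also among the most negative, holds them 2 times.
Bnip3: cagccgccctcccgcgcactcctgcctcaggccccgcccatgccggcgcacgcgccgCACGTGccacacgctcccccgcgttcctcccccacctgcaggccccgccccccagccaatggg
Slc2a1 (chr4:119108625-119108744, plus strand), the glucose transporter, holds them 1 time.
Slc2a1: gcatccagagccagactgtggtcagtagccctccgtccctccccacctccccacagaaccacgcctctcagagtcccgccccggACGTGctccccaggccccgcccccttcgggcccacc
Only stretches with these letters are shown, so their presence here follows from the choice. In all, 20 of the 30 matched genes had ACGTG in a window. It was in no window of Adm, Tpi1 and Vhl, which had positive differences. The same held for Pfkl, Pfkp, Pfkfb4, Pdk1 and Eno2, which had negative differences, and for Gpi1 and Eno1, which were not measured.

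Of the 13 glycolytic enzymes that were tested, 10 had a negative difference (knockout minus wild type) and 3 a positive one, with a median of -0.17 log2 units against 0.0027 over all 13271 genes tested. None passed the test across all genes (limma, Benjamini-Hochberg adjusted p under 0.05), where the background was 9 genes, or 0.0678% (0.0151% higher and 0.0527% lower in the knockout). Differences ran from -0.46 for Pfkm to 0.60 for Ldha. The 2 isolations of a genotype were often further apart than the genotypes: in 11 of the 13 enzymes, the larger gap between isolations exceeded the difference between genotypes, as in 69.2% of all genes tested.

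The hexokinases, which trap glucose in the cell as glucose 6-phosphate, had small negative differences. Hk1 stood at 8.82 and 8.57 in the knockout and 8.82 and 9.01 in the wild type, a difference of -0.22 (95% interval -0.65 to 0.21). Hk2, the inducible form, stood at 6.05 and 6.36 against 6.32 and 6.85, a difference of -0.38 (-1.02 to 0.26). Wild-type isolation 2 was highest for both genes, the Hk2 values of the genotypes overlapped, and those of Hk1 almost touched.

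The phosphofructokinases catalyse the committed step of the pathway, and all 3 subunit genes had negative differences. Pfkm, the muscle-type subunit, stood at 8.13 and 7.83 in the knockout and 8.42 and 8.47 in the wild type, without overlap (means 7.98 ± 0.213 and 8.45 ± 0.0369, SD, n = 2). Its difference of -0.46 (SE 0.158, 95% interval -0.89 to -0.038) had a limma adjusted p of 0.417. Pfkm was the 1 enzyme with an unadjusted limma p under 0.05, which 5.24% of all genes reached on the lower side of the knockout. The liver-type Pfkl stood at 7.46 and 7.07 against 7.41 and 7.64 (difference -0.26), and the platelet-type Pfkp at 8.53 and 8.05 against 8.20 and 8.62 (difference -0.12). In both, knockout isolation 2 was lowest and wild-type isolation 2 highest, and the genotypes overlapped. The 3 probe sets of Pfkp disagreed in sign, with differences from -0.12 to 0.11.

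Aldolases split fructose 1,6-bisphosphate, and their 2 measured genes differed in sign. Aldoa, the main form in most tissues, stood at 12.04 and 11.99 in the knockout and 11.99 and 12.38 in the wild type, a difference of -0.17, and its 5 probe sets gave -0.23 to -0.15. Aldoc, the brain-type form, stood at 6.27 and 5.65 against 5.86 and 5.34, a difference of 0.36 (95% interval -0.43 to 1.16). The genotypes overlapped for both genes, and the difference between them was not tested. Tpi1, which interconverts the triose phosphates, stood at 11.48 and 11.41 against 11.03 and 11.47, a difference of 0.19, with wild-type isolation 1 apart from the other 3 arrays.

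Gapdh, which oxidises glyceraldehyde 3-phosphate and often serves as a reference gene, was named alone by control probe sets of the array and no others. The brightest of these 3 stood at 13.52 and 13.29 in the knockout and 13.33 and 13.70 in the wild type, a difference of -0.11, and the 3 ran from -0.11 to -0.098. Controls were left out of the main fit; when they were allowed, Gapdh had a limma adjusted p of 0.856. Pgk1, an X-linked gene whose enzyme makes the first ATP of the pathway, stood at 11.95 and 11.96 against 11.71 and 12.33. Its knockout values lay between those of the wild type, and its difference was -0.066 (95% interval -0.71 to 0.58). Pgam1, the phosphoglycerate mutase, stood at 11.05 and 11.25 against 11.10 and 11.62 (difference -0.21). Eno2, the neuronal enolase, stood at 6.12 and 5.07 against 6.04 and 5.45 (difference -0.15), so that isolation 2 was the lower array in both genotypes.

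The last steps of the pathway held the largest positive difference among the enzymes. Pkm, which makes pyruvate, stood at 11.97 and 11.23 in the knockout and 11.64 and 12.11 in the wild type, a difference of -0.28 (95% interval -1.14 to 0.57). The knockout arrays of Pkm were the highest but 1 and the lowest of the 4. Ldha, which turns pyruvate into lactate, stood at 11.55 and 12.01 against 10.94 and 11.41, with means of 11.78 ± 0.33 (SD, n = 2) and 11.18 ± 0.329. The genotypes did not overlap for Ldha, and its difference was 0.60, or 1.52-fold (SE 0.253, 95% interval -0.075 to 1.28, limma adjusted p = 0.469). In both genotypes isolation 2 exceeded isolation 1 by 0.47. Left out in turn, the 4 arrays gave Ldha differences of 0.37 to 0.84, the lower with knockout isolation 2 or wild-type isolation 1 left out. The proliferation genes also stood higher in the knockout (medians of 8.47 and 9.39 against 6.89 and 6.59). Within the knockout, isolation 2 was the higher for Ldha and for these genes, whose median gap was 0.88. Within the wild type, isolation 2 was the higher for Ldha and the lower for these genes (median gap -0.21). The part of these genes in the Ldha difference was not tested.

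**Figure D1:**
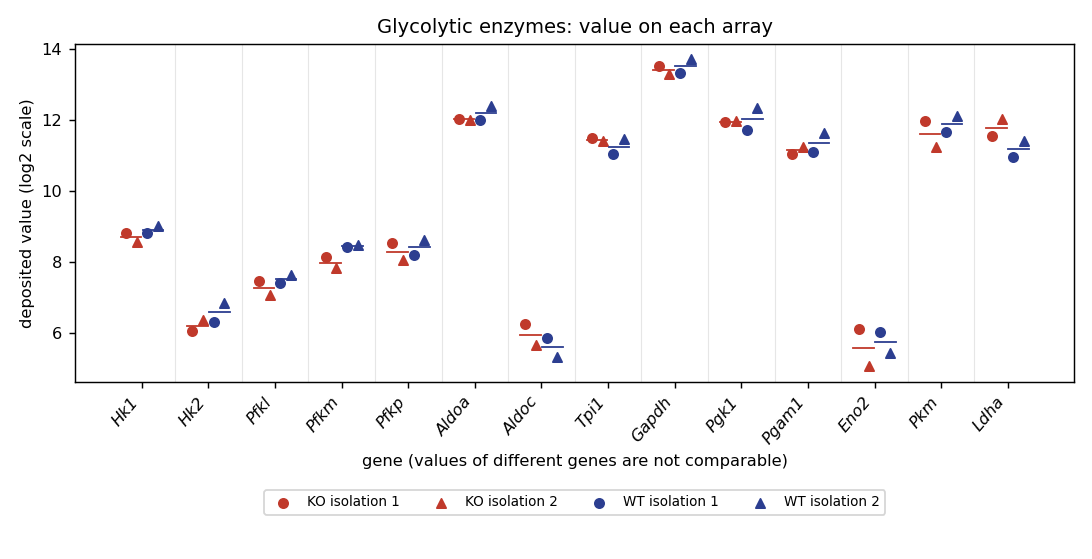
Deposited log2 value (vertical axis) of each of the 14 measured glycolytic enzymes (horizontal axis) on each array; red marks are knockout, blue marks wild type, circles isolation 1, triangles isolation 2, and short lines the means of 2 isolations. For most genes the blue triangle (wild-type isolation 2) is the highest mark and the genotypes overlap. Ldha has both knockout marks above both wild-type marks, and Pfkm and, by a very small margin, Hk1 have them below.

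The tested transporters and regulators of glycolysis all had negative differences between knockout and wild type. Their median was -0.36, and 3 of the 4 did not overlap between the genotypes, where the background on this side was 22.0%. None passed the test. The median was -0.58 when wild-type isolation 1 was dropped, and -0.15 when wild-type isolation 2 was.

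Pfkfb3 had the largest difference of all 27 genes tested. It encodes the kinase and phosphatase that makes fructose 2,6-bisphosphate, the strongest activator of phosphofructokinase. On the log2 scale it stood at 5.90 and 5.89 in the knockout and 6.63 and 7.23 in the wild type, with means of 5.89 ± 0.00424 (SD, n = 2) and 6.93 ± 0.425. Both knockout arrays were below both wild-type arrays, by 1.04 log2 units on average, or 2.06-fold (SE 0.236, 95% interval -1.67 to -0.41). The unadjusted limma p was 0.00949 and the adjusted p 0.297, so the gene did not pass. The other probe set of Pfkfb3, which lay under the filter, differed by -0.11, and the mean over both by -0.58 (limma adjusted p = 0.335). With wild-type isolation 2 left out the difference was -0.74.

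Slc2a1, which encodes the glucose transporter GLUT1, stood at 8.66 and 8.76 in the knockout and 8.88 and 9.42 in the wild type. The genotypes did not overlap, and the difference was -0.44 (SE 0.22, 95% interval -1.03 to 0.15, limma adjusted p = 0.523). Its 3 probe sets gave -0.51 to -0.33, and without wild-type isolation 2 the difference was -0.17. Pfkfb4, a related bifunctional enzyme, stood at 6.36 and 6.21 against 6.41 and 6.74 (difference -0.29). Pdk1, a kinase that blocks pyruvate oxidation, stood at 6.97 and 6.63 against 6.79 and 7.06 (difference -0.13). Its 4 probe sets ran from -0.50 to 0.15. Slc16a3, the lactate exporter MCT4, lay under the filter at 3.25 and 3.37 against 3.75 and 3.69, and was not tested.

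The other HIF targets had differences of both signs. Of 7 tested, 4 had negative and 3 positive differences, with a median of -0.21 beside -0.17 for the enzymes. None passed the test. The sign of this median rested on single arrays: leaving out knockout isolation 2 gave 0.029 and leaving out knockout isolation 1 gave -0.45, while the values were 0.031 and -0.034 when wild-type isolation 1 or 2 was dropped. With a stricter filter, which removes Egln3 and Car9, it was 0.069. The enzyme median likewise became -0.37 or 0.025 when wild-type isolation 1 or 2 was dropped, and -0.22 or -0.065 when knockout isolation 1 or 2 was. The difference between the enzymes and the other targets was not tested.

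Bnip3, a mitophagy receptor and a classical HIF target, stood at 8.95 and 8.57 in the knockout and 9.35 and 9.46 in the wild type. Both knockout values were below both wild-type values, by 0.64 log2 units on average, or 1.56-fold (SE 0.18, 95% interval -1.13 to -0.16). The means were 8.76 ± 0.268 (SD, n = 2) and 9.40 ± 0.0798, the unadjusted limma p was 0.0199 and the adjusted p 0.359. Bnip3l, its paralog, was seen by 3 probe sets that name its pseudogene too. The brightest of them stood at 10.83 and 10.68 against 10.91 and 10.81, with knockout and wild-type values that overlapped. The other 2 stood at 9.74 and 9.82 against 9.94 and 9.82, and at 8.84 and 8.82 against 9.03 and 8.93, with both knockout values the lower, in the former by a margin too small to show at this rounding.

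The prolyl hydroxylase genes, which HIF induces and which in turn mark HIF alpha for destruction, had wide and overlapping intervals, and they were not tested against each other. Egln1 stood at 8.15 and 8.53 in the knockout and 8.23 and 8.31 in the wild type, a difference of 0.069 (95% interval -0.40 to 0.54). Egln3 stood at 4.22 and 4.56 against 4.42 and 5.69, a difference of -0.67 (-1.90 to 0.57). Egln3 was high in wild-type isolation 2 alone, and without that array its difference was -0.034. The other Egln3 probe set stood at 3.94 and 4.31 against 3.98 and 4.45, a difference of -0.091. The mean over both differed by -0.38.

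Ndrg1, a stress-responsive gene, was low on a single array. It stood at 9.51 and 8.13 in the knockout and 9.31 and 9.54 in the wild type, and all 5 of its probe sets had negative differences, from -0.71 to -0.39. The difference of -0.61 (95% interval -1.91 to 0.69) was 0.080 without knockout isolation 2. Ddit4, an inhibitor of mTORC1 signalling, stood at 10.82 and 9.94 against 10.31 and 10.04 (difference 0.21), and was highest in knockout isolation 1.

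Adm encodes the vasoactive peptide adrenomedullin. It stood at 10.03 and 10.44 in the knockout and 9.79 and 10.00 in the wild type, without overlap. Its difference was 0.34 (SE 0.197, 95% interval -0.18 to 0.87, limma adjusted p = 0.558), and both probe sets had a positive sign. Car9, a carbonic anhydrase at the cell surface and a sensitive hypoxia marker, stood near the filter value of 4.17 at 4.82 and 4.34 against 5.13 and 4.45 (difference -0.21). Ankrd37, likewise strongly hypoxia-inducible, lay under the filter at 4.08 and 3.41 against 3.71 and 4.70. In both genes the genotypes overlapped.

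**Figure D2:**
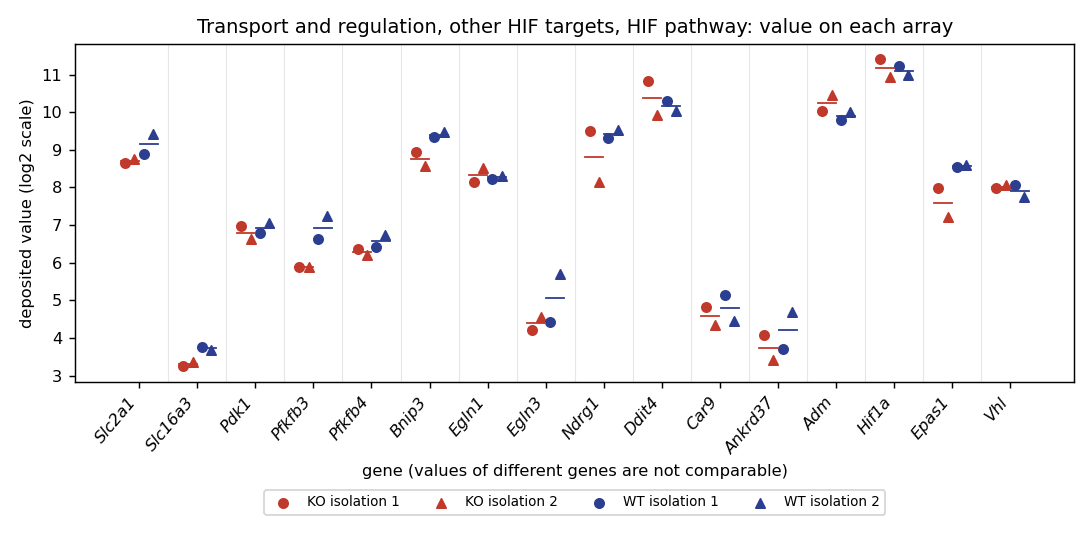
Deposited log2 value (vertical axis) on each array of the 16 measured transporters, regulators, other HIF targets and HIF pathway genes (horizontal axis); red marks are knockout, blue marks wild type, circles isolation 1, triangles isolation 2, and short lines the means of 2 isolations. Both red marks lie below both blue marks for Slc2a1, Slc16a3, Pfkfb3, Pfkfb4, Bnip3 and Epas1, and above them for Adm. Ndrg1 is low on 1 knockout array and Egln3 high on 1 wild-type array.

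Among the HIF pathway genes, of which none passed the test, the alpha subunits had differences of opposite sign, and the contrast between them was not tested. The median over the 3 genes was 0.080 (-0.15 and 0.059 without knockout isolation 1 or 2, 0.20 and -0.049 without wild-type isolation 1 or 2). Hif1a stood at 11.40 and 10.95 in the knockout and 11.22 and 10.97 in the wild type, a difference of 0.080 (95% interval -0.49 to 0.65), and its 4 probe sets gave 0.080 to 0.23. Epas1, which encodes HIF-2 alpha, stood at 7.98 and 7.22 against 8.55 and 8.59, with means of 7.60 ± 0.538 (SD, n = 2) and 8.57 ± 0.0302. Its difference of -0.97, or 1.96-fold (SE 0.284, 95% interval -1.74 to -0.21), had an unadjusted limma p of 0.0231 and an adjusted p of 0.377. The genotypes did not overlap, but knockout isolation 2 was 0.76 below knockout isolation 1, and without it the difference was -0.59. The other Epas1 probe set differed by -0.25, and the mean over both by -0.61. Vhl, the substrate receptor of the ligase that removes HIF alpha, stood at 7.97 and 8.07 against 8.07 and 7.76, a difference of 0.11. Hif1a is controlled mainly through its protein, which the arrays do not measure.

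In all, 19 of the 27 tested genes had negative differences, where 49.5% of all genes did, and 4 of the 27 (Pfkfb3, Bnip3, Epas1 and Pfkm) had an unadjusted limma p under 0.05. All 4 stood lower in the knockout, where 5.24% of all genes reached that p on this side, and none reached it on the higher side, against 6.18%. The genotypes did not overlap for 7 genes on the lower side and 2 on the higher side, against 22.0% and 23.0% of all genes (45.0% in either direction). The share among the 27 genes was thus a little above the background on the lower side and below it on the higher side. Adjusted p-values ran from 0.297 to 0.943. For 21 of the 27 the difference was under 0.5 log2 units in size. The intervals are wide: the median SE was 0.225, and 23 of the 27 intervals held 0, so that moderate differences in either direction remain possible for most genes.

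**Figure D3:**
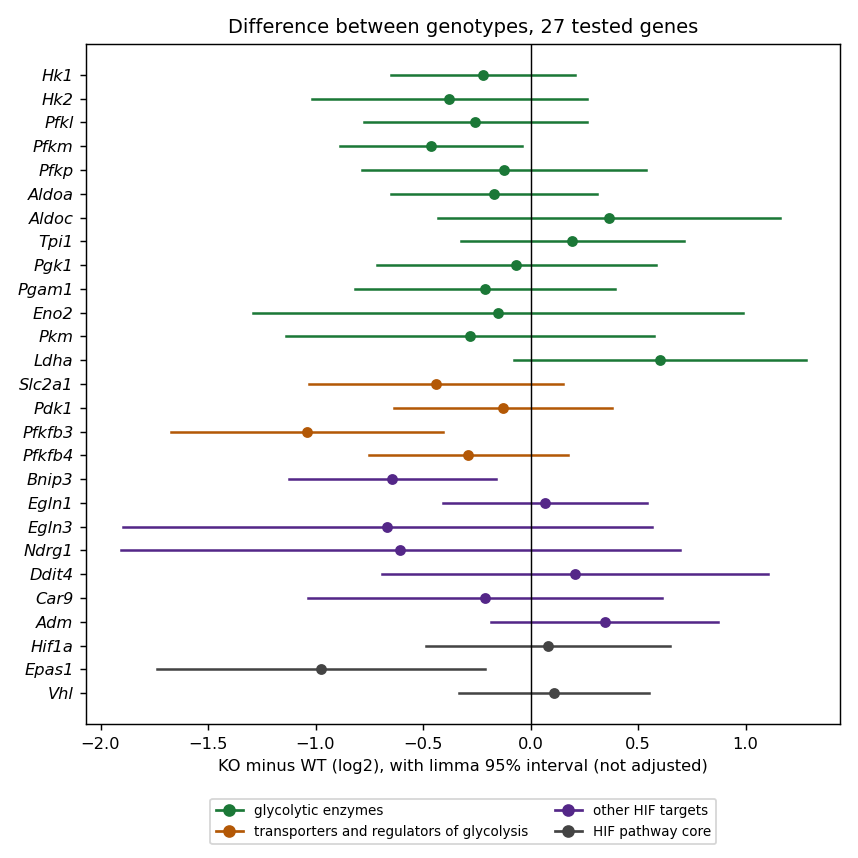
Difference between the genotypes (horizontal axis, knockout minus wild type, log2) for each of the 27 tested genes (vertical axis), with the limma 95% interval, which is not adjusted for the number of genes; colours mark the groups of genes. The intervals of Pfkm, Pfkfb3, Bnip3 and Epas1 lie wholly below 0 and the other 23 hold 0.

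The isolations of a genotype also differed in a common direction for most enzymes. In wild-type isolation 2, 11 of the 13 tested enzymes stood above wild-type isolation 1, where 49.3% of all genes did, with a median gap of 0.42 log2 units against -0.0013 over all genes. The exceptions were Aldoc and Eno2, at -0.51 and -0.59. Pgk1 (0.62), Pgam1 (0.53), Hk2 (0.53), Pkm and Ldha (0.47 each) had the largest gaps. The 4 tested transporters and regulators had a median gap of 0.43, all of them positive, while the other HIF targets had a median of 0.11 and ran from -0.68 for Car9 to 1.26 for Egln3. Wild-type isolation 2 was the highest of the 4 arrays for 9 enzymes and for 17 of all 27 genes, against 24.9% of all genes tested. With 1 array on each side this comparison has no replicate check.

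In the knockout the order was the other way for most enzymes. Knockout isolation 2 stood below isolation 1 for 9 of 13, where 53.5% of all genes did, with a median gap of -0.25 against -0.025 over all genes. The gaps were largest for Eno2 (-1.05), Pkm (-0.74) and Aldoc (-0.62), while Ldha (0.47), Hk2 (0.31) and Pgam1 (0.20) ran against them. Knockout isolation 2 was the lowest array for 15 of the 27 genes, against 33.1%. The enzyme median was 0.082 between knockout and wild-type isolations 1, and -0.39 between isolations 2. Across the numbers it was -0.18 for knockout isolation 1 minus wild-type isolation 2. For knockout isolation 2 minus wild-type isolation 1 it was -0.15. Wild-type isolation 1 was the array with most macrophage markers high (median 9.13), and wild-type isolation 2 the one with the lowest Lum and Pdgfra. The part of these markers in the gaps was not tested.

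**Figure D4:**
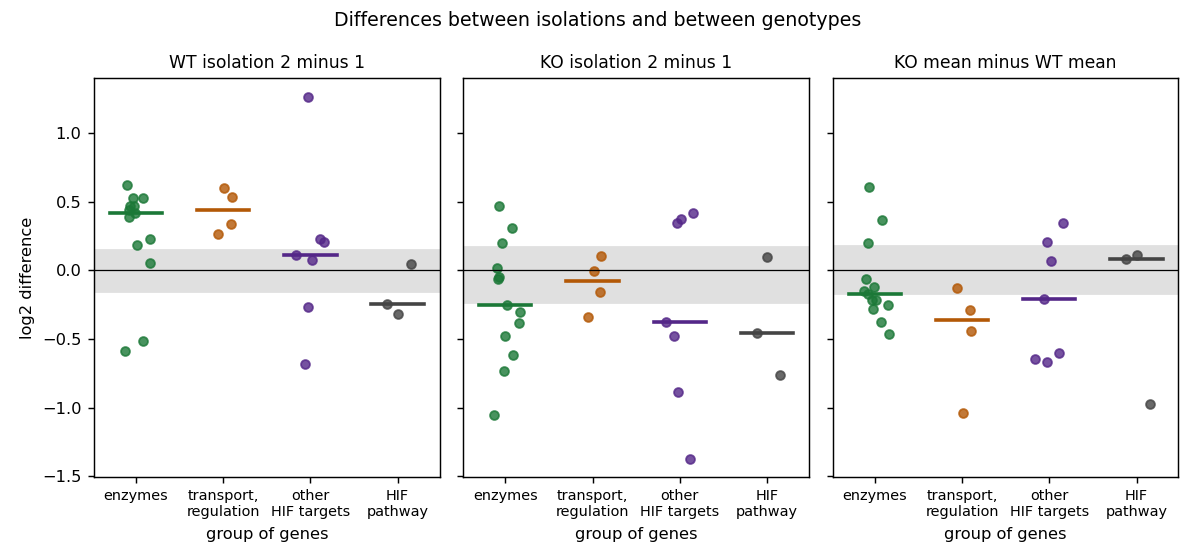
Log2 differences (vertical axis) between isolations of the wild type (left), between isolations of the knockout (middle) and between the genotype means (right), for the 27 tested genes by group (horizontal axis); points are genes, bars are group medians, and the grey band holds the middle 50% of all genes tested. The enzymes lie mostly above the band on the left (median 0.42). On the right their median (-0.17) is near the lower edge of the band. Single enzymes there run from -0.46 to 0.60, beyond the band on both sides.

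Further genes of the same pathways likewise held none that passed the test. Of 18 further glycolysis genes tested out of 23 listed, none passed, 12 were negative, and the median was -0.13. Pdk4, a kinase that blocks pyruvate oxidation, stood at 7.41 and 7.37 in the knockout and 8.53 and 8.99 in the wild type, a difference of -1.37 (SE 0.199, limma adjusted p = 0.182). The lactate transporter gene Slc16a1 stood at 7.27 and 8.75 against 7.02 and 6.62, a difference of 1.19 (SE 0.534), and was highest in knockout isolation 2. The muscle enolase Eno3 differed by -0.94 (SE 0.493), with values that overlapped.

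Of 28 further hypoxia response genes tested out of 31, none passed, 20 were negative, and the median was -0.20. It was -0.083 without wild-type isolation 2 and -0.12 with the mean over probe sets. Stc2, a secreted glycoprotein gene, stood at 6.57 and 7.03 in the knockout and 5.90 and 5.63 in the wild type, a difference of 1.03 (SE 0.218, limma adjusted p = 0.283). Ppp1r3c, a glycogen-targeting phosphatase subunit, differed by -0.85 with overlap, and the heme oxygenase Hmox1 by -0.83 without it, with 11.70 in wild-type isolation 2 and 10.14 to 10.69 on the other arrays.

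Of 13 further HIF pathway genes tested out of 14, none passed, and 6 were positive and 7 negative. Arnt2, a dimerisation partner of the alpha subunits, stood at 5.74 and 4.16 in the knockout and 6.15 and 6.34 in the wild type (difference -1.30, SE 0.553). Siah2 and Siah1a, ubiquitin ligases that act on the prolyl hydroxylases, differed by 0.43 and 0.22 without overlap.

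Pathways that branch from glycolysis were measured too. The 21 tested genes of pyruvate entry and the citric acid cycle ran from -0.16 to 0.26 (median 0.044), with Idh3g, Dlst and Mpc1 at 0.26, 0.19 and 0.18, and none passed. Of 8 tested genes of the pentose phosphate pathway, none passed, 3 were positive and 5 negative (median -0.18). Its largest differences lay in the phosphoribosyl pyrophosphate synthetases, with Prps2 at 8.45 and 8.52 against 9.33 and 9.31 (difference -0.84, limma adjusted p = 0.184) and Prps1 at 8.15 and 8.70 against 7.63 and 7.82 (difference 0.70). The isomerase Rpia differed by 0.40.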

How the data were processed

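Total RNA of 4 cultures, 1 array each, was labelled with a 3' IVT kit, per the labels. The authors deposited 1 value per probe set, made with Affymetrix Expression Console per the submitters' processing notes; the sources used here do not give its version, the summary algorithm or the log base. Deposited values (1.70 to 14.4, array medians 4.84 to 4.88) were taken as log2; another base would change the folds. Probe levels of different genes were not compared. Precision is limited by having 2 arrays per genotype.

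Probe sets were named from the platform annotation, with 34741 of 34945 names matched, and updated where they differed, through Entrez identifiers (RefSeq, GRCm38.p6). The 64 controls and the probe sets naming several genes (932) or none (9160) were left out. A gene was tested if its chosen probe set averaged more than 4.17, the 40th percentile of non-control probe sets: 13271 of 18193. The test was limma's (version 3.58.1, R 4.3.3; lmFit and eBayes, no block, 2 residual and 2.38 prior degrees of freedom), adjusted by Benjamini-Hochberg over all of them. SEs and intervals are limma's. The procedure was tested on simulated data.

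The genes described and all lists were chosen with earlier results of these data known. In the other lists the 3 largest differences were named where none passed; of the proliferation and cell type lists few or none are named. Promoter stretches were chosen after values were seen. The processing was varied with isolation number as a block, other filters, normalizations and probe set rules, and leaving out each array.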

Additional observations from a re-analysis of the deposited data

How the results depend on the processing

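No gene of the 27 passed under any of the 9 alternatives that kept all arrays, and none changed sign there. Over all genes, 9 passed, and 2 with the isolation number as a replicate block. With any of the 4 arrays left out, limma assumes that the lone array varies like the other genotype; 0 genes passed in any such fit (714 to 2281 at an unadjusted p under 0.05), so these fits say nothing about calls among the 27. The deviations of same-numbered isolations correlated at 0.116 across genes, and nothing in the labels says that the number marks a shared litter or day.

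The median of the other HIF targets was 0.069 with the filter at the 60th percentile, and -0.45 to 0.031 with 1 array left out. The HIF pathway median was -0.15 to 0.20 with 1 array left out. The median of further hypoxia response genes was -0.12 with the mean over probe sets, and -0.20 to -0.083 with 1 array left out. With 1 array left out, 14 genes changed sign: Pfkp (-0.36 to 0.11), Aldoa (-0.37 to 0.025), Tpi1 (-0.026 to 0.42), Pgk1 (-0.38 to 0.24), Pgam1 (-0.48 to 0.051), Eno2 (-0.68 to 0.38), Pkm (-0.65 to 0.087), Pdk1 (-0.30 to 0.044), Egln1 (-0.12 to 0.26), Ndrg1 (-1.29 to 0.080), Ddit4 (-0.24 to 0.65), Car9 (-0.55 to 0.13), Hif1a (-0.15 to 0.31) and Vhl (-0.049 to 0.27). The remaining 13 kept their sign, but many moved by over 1.5 times: Hk1 ran from -0.34 to -0.094 and Pfkl from -0.45 to -0.065 (both nearest 0 without knockout isolation 2), Hk2 from -0.64 to -0.11 and Pfkfb4 from -0.46 to -0.12 (both nearest 0 without wild-type isolation 2), Aldoc from 0.055 (without knockout isolation 1) to 0.67, and Adm from 0.14 (without knockout isolation 2) to 0.55. The cause was not tested. Low signal over background limits Slc16a3, Ankrd37, Car9 and Egln3.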
